A study of Daphnia magna with 48 samples.

Results

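Of 6006 *Daphnia magna* probes on the array, 34 differed in opposite directions between exposed and control water fleas with the alcohols isobutanol and 3-chloropropanol. A probe was taken when the mean of its 3 exposed arrays and the mean of its 3 control arrays lay at least 0.5 apart on the log2 scale with each alcohol, and when the signs were opposite. Of these members, 21 were higher with isobutanol and lower with 3-chloropropanol, and 13 were lower with isobutanol and higher with 3-chloropropanol. They make up 0.566% of the probes. Another 240 probes passed 0.5 with both alcohols in the same direction. The members were chosen by their differences of means with the alcohols in these same 12 arrays, so those differences are given as a description and were not tested.

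The arrays measured total RNA from whole bodies of *Daphnia magna*, a freshwater crustacean, on day 4 of life. Neonates were kept for 96 h at the EC10 of a chemical, the concentration at which 10% of animals were immobilised, or without it. Each RNA sample came from 30 pooled animals, and the labels call the 3 samples of a group biological replicates. Every array carried a sample in one dye and, in the other, a reference mixed from control and exposed RNA. There were 48 arrays in 16 groups: a control and an exposed group for each of isobutanol, 3-chloropropanol, aniline, 4-chloroaniline, 3,5-dichloroaniline, 2,3,4-trichloroaniline, 3,4-dichlorophenol and cadmium. Each chemical had a control group of its own, per the labels. The test water was renewed every 48 h for the anilines, per the labels. Whole-body pools cannot separate a change of RNA level within cells from a change in the share of a tissue.

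Simple alcohols are textbook narcotics: they dissolve in membranes and depress activity in a reversible way without binding a specific receptor. Non-polar narcosis, also called baseline toxicity, is the term used for them, whereas phenols and anilines are grouped as polar narcotics, which tend to be somewhat more toxic than their hydrophobicity alone predicts. Isobutanol is a branched alcohol without a halogen, and 3-chloropropanol is a straight-chain alcohol that carries chlorine. Chlorinated alcohols can also be oxidised to reactive products by alcohol dehydrogenase, a route known from mammals. Cadmium, a metal, is no narcotic. The series' title puts the aliphatic alcohols against the substituted benzenes. Because each chemical was given at its own EC10, the alcohols were matched by effect and not by concentration.

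Values are log2 ratios of sample to reference as far as the data allow that reading. The spike-in row lay above 0 on all 24 arrays with the sample in Cy5 and below 0 on all 24 with the sample in Cy3, while arrays of opposite dye within a group correlated positively over probes (median r 0.44). The reference was mixed from these samples, which puts the mean ratio of a probe near 1 if samples are the numerator. Among 420 variable probes (SD 0.6 to 1) the log2 of that mean ratio had a median of -0.07, or of 0.43 if each sign was reversed. Among 4094 probes with an SD under 0.3 its median absolute value was 0.0697 as deposited and 0.0653 reversed. Those probes do not tell the directions apart. From the variable probes alone the direction is likely. It is not settled, since 5 of 552 pairs of arrays in the same dye correlated below -0.3 (lowest -0.41). With every sign turned, the same 34 probes are members, the sets of 21 and 13 exchange names, and each rise or fall given below changes its sign. The files pair no probe with a gene, so members are named by probe ID.

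The 3-chloropropanol arrays stood apart within their own groups. The Cy5 controls 1 and 3 had an r of 0.94, while their r with the Cy3 control 2 was 0.11 and 0.12. Exposed samples 1 and 2 in Cy3 correlated at 0.84, and at 0.28 and 0.24 with exposed sample 3 in Cy5. The SD over probes of the difference between controls 1 and 3 was 0.132, against 0.218 to 0.520 for the 15 other pairs of replicates in the same dye. The 3-chloropropanol arrays in Cy3 correlated with the 3,4-dichlorophenol arrays of the same exposure at a mean r of 0.70 (0.57 to 0.84). Whether any of these arrays share RNA or carry exchanged labels was not tested, and separate samples are taken from the labels alone. Within the isobutanol groups, all pairs of arrays correlated at 0.81 to 0.95. Counting controls 1 and 3 as 1 sample left 18 and 8 probes in the sets in place of 21 and 13.

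DM12053P2 showed the widest opposite difference. Its isobutanol controls read -0.74, -0.71 and -0.95 and its isobutanol-exposed samples 1.17, 1.06 and 1.50. Its 3-chloropropanol controls read 1.42, 1.07 and 1.37 and its exposed samples -1.08, -0.99 and -0.12. The groups did not overlap with either alcohol, and the arrangement of the levels was crossed: the animals exposed to isobutanol and the unexposed animals of the 3-chloropropanol experiment were both high. The difference of means was 2.04 with isobutanol and -2.02 with 3-chloropropanol. Within 3-chloropropanol it was -2.11 in the Cy3 samples and -1.52 in the Cy5 samples. In the 6 other experiments the control means ran from -0.95 to -0.11, so the unusual groups were the isobutanol-exposed group at 1.24 ± 0.23 and the 3-chloropropanol control group at 1.29 ± 0.19 (SD, n = 3 here and in all group means below).

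DM06006P2, DM12300P1 and DM12347P3 had another arrangement, with the isobutanol control and the 3-chloropropanol-exposed group as the low ones. For DM06006P2 the isobutanol controls read -2.19, -1.97 and -1.22 and the exposed samples -0.87, -0.89 and -0.74. The 3-chloropropanol controls read 0.03, -0.10 and 0.11 and the exposed samples -2.14, -1.72 and -1.39. The 3 exposed samples were thus above all 3 controls with isobutanol and below all 3 with 3-chloropropanol. The control means of the 6 other experiments ran from -1.11 to 0.50, and the isobutanol control (-1.79 ± 0.51) and the 3-chloropropanol-exposed group (-1.75 ± 0.38) were both below that range. DM12300P1 differed by 0.85 with isobutanol and by -1.40 with 3-chloropropanol, and DM12347P3 by 0.93 and -1.20. All 3 of these probes kept the 3-chloropropanol sign at 1.02 or more in size in each dye: DM06006P2 had -1.82 in Cy3 and -1.46 in Cy5, DM12300P1 -1.41 and -1.04, and DM12347P3 -1.13 and -1.02.

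DM01619P2 and DM02011P1 were also low in the isobutanol controls and in the 3-chloropropanol-exposed group. For DM01619P2 both groups (-1.37 ± 0.39 and -1.21 ± 0.05) were below the other control means of -1.13 to 0.75. For DM02011P1 the other control means ran from -1.30 to 0.73. Its isobutanol control (-1.50 ± 0.38) was below that range and its 3-chloropropanol-exposed group (-1.04 ± 0.05) inside it. DM01619P2 read -1.46, -1.70 and -0.94 in the isobutanol controls and -0.39, -0.25 and 0.21 in the exposed samples. With 3-chloropropanol it read -0.13, -0.49 and -0.10 in the controls and -1.16, -1.24 and -1.24 in the exposed samples. The groups did not overlap with either alcohol. DM02011P1 read -1.45, -1.91 and -1.15 in the isobutanol controls and 0.01, 0.08 and 0.50 in the exposed samples. Its 3-chloropropanol controls read -0.19, -0.38 and -0.22 and its exposed samples -0.99, -1.06 and -1.08, again without overlap. In Cy3 and in Cy5 the 3-chloropropanol difference was -0.70 and -1.13 for DM01619P2 and -0.65 and -0.88 for DM02011P1.

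These 6 probes (DM12053P2, DM06006P2, DM12300P1, DM12347P3, DM01619P2 and DM02011P1) were the members that differed by at least 0.5 with opposite signs in Cy3 and in Cy5 with both alcohols. All are in the set higher with isobutanol. DM12053P2, DM01619P2 and DM02011P1 also stayed members under each of the 12 leave-outs of an alcohol array and under the 8 other ways of computing the differences at the same threshold. No other member did, so 3 of 21 in this set and 0 of 13 in the other were kept under every setting. The 12 leave-outs alone kept 8 of 21 and 4 of 13.

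Among the remaining members higher with isobutanol, the isobutanol differences ran from 0.54 to 1.34 and the 3-chloropropanol differences from -0.96 to -0.50. DM07188P1 (0.78 with isobutanol and -0.96 with 3-chloropropanol), DM07148P1 (1.09 and -0.76) and DM12538P4 (0.99 and -0.65) had the isobutanol-exposed group and the 3-chloropropanol control as the groups farther from the other controls. DM00720P3 (0.67 and -0.82) was low in every isobutanol sample, with controls at -1.56, -1.90 and -1.99 and exposed samples at -1.26, -0.93 and -1.26. Its 3-chloropropanol controls 1 and 3 read 0.76 and 0.73 and control 2 read -0.78, beside exposed samples at -0.75, -0.97 and -0.02. The 3-chloropropanol difference of DM00720P3 was accordingly -0.08 in Cy3 and -0.76 in Cy5. DM12703P3, named after its values were seen, was lower still in the isobutanol samples, with controls at -1.95, -3.01 and -2.52 and exposed samples at -1.78, -1.92 and -1.98.

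In the set lower with isobutanol, DM01145P3 had the widest opposite difference. Its isobutanol controls read 2.76, 3.47 and 3.35 and its exposed samples 2.01, 1.92 and 1.95, so all 6 arrays of the isobutanol experiment were high and the controls highest. Its 3-chloropropanol controls read -1.87, 0.12 and -1.85 and its exposed samples 0.04, 0.77 and -0.68. Control 2, the Cy3 control, overlapped with the exposed samples. The difference was -1.23 with isobutanol and 1.24 with 3-chloropropanol, and the 3-chloropropanol difference was 0.29 in Cy3 and 1.18 in Cy5. Both control groups were farther than the exposed groups from the other controls, whose means ran from -1.37 to 0.82.

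DM11211P3 was the sole member of this set with a 3-chloropropanol difference of at least 0.5 in both dyes (0.62 in Cy3 and 1.38 in Cy5). Its isobutanol controls read 1.23, 1.79 and 2.05 and its exposed samples 0.84, 0.67 and 0.70. Its 3-chloropropanol controls read 0.02, 0.14 and -0.10 and its exposed samples 0.67, 0.86 and 1.34. The groups did not overlap with either alcohol. The groups farther from the other controls were the isobutanol control (1.69 ± 0.42) and the 3-chloropropanol-exposed group (0.96 ± 0.34). Both were above the other control means of -0.12 to 0.66, and so was the isobutanol-exposed group (0.73 ± 0.09).

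DM02806P1, DM02292P2 and DM08372P3 had a 3-chloropropanol sign that differed between the dyes. DM02806P1 read -1.72 and -1.83 in the Cy5 controls and 0.63 in the Cy3 control, beside exposed samples at 0.19 and 0.48 in Cy3 and -0.57 in Cy5. Its 3-chloropropanol difference was 1.01 over all arrays, -0.30 in Cy3 and 1.21 in Cy5. In DM02292P2 these values were 1.12, -0.28 and 1.59, and in DM08372P3 0.65, -0.42 and 0.66. With isobutanol the same probes differed by -0.92, -0.81 and -0.82, and their signs were equal in both dyes. DM02037P2 (-0.90 with isobutanol and 0.70 with 3-chloropropanol) and DM01908P1 (-0.57 and 0.61) resembled DM01145P3 in their high isobutanol arrays. Their 3-chloropropanol sign was positive in Cy5 (0.85 and 0.89) and negative in Cy3 (-0.34 and -0.59).

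DM04864P3 and DM00923P2 of this set each had an array far from its group, and were no longer members without it. DM04864P3 differed by -0.86 with isobutanol, where exposed sample 2 read -2.21 while exposed samples 1 and 3 read 1.58 and 1.27, above the controls at 0.86, 1.10 and 1.25. DM00923P2 differed by 0.98 with 3-chloropropanol, with exposed sample 2 at 3.09 and exposed samples 1 and 3 at 0.20 and 0.21. When the median of the 3 arrays replaced the mean, both were no longer members. DM06510P2 differed by -0.57 with isobutanol and by 1.12 with 3-chloropropanol, where exposed sample 3 read 0.86 and the other exposed samples -0.99 and -0.92. It stayed a member without that sample and was lost without isobutanol control 2, control 3 or exposed sample 3.

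At the edge of the threshold, the members just inside were DM03675P1 (0.88 with isobutanol and -0.50 with 3-chloropropanol), DM02950P1 (0.92 and -0.54), DM06051P3 (-0.78 and 0.51) and DM02999P4 (-0.52 and 0.60). Just outside were DM01732P4 (1.09 and -0.49), DM00312P2 (1.03 and -0.49), DM07662P1 (-0.50 and 0.55) and DM06785P4 (-0.49 and 0.79). The probes on either side of the line differed by less than the spread between replicates of these groups.

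Whether the exposed or the control group was the unusual one was read from the distance of each group mean to the median of the 6 other control means. In the set higher with isobutanol, the control was the farther group in 15 of 21 members with isobutanol and in 13 of 21 with 3-chloropropanol. In the set lower with isobutanol, it was the farther group in 7 of 13 and in 11 of 13. Over all probes the control was farther in 58.9% with isobutanol and in 45.4% with 3-chloropropanol. In 12 of 34 members both controls were farther, in 12 the isobutanol-exposed group and the 3-chloropropanol control, and in 10 the isobutanol control and the 3-chloropropanol-exposed group. In 0 of 34 were both exposed groups farther, which was so for 22.4% of all probes. Opposite signs by the rule favour some of these arrangements, so these shares describe the members and test nothing.

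The control and exposed means of the alcohol experiments were also compared with the range of the 6 other control means. With isobutanol the control was outside in 22 of 34 members (64.7%, near the 55.1% of all probes). The isobutanol-exposed group was outside in 23 of 34 (67.6%, beside 47.7% of all probes). The isobutanol control was below all 6 other control means in 13 of 21 members higher with isobutanol (27.3% of all probes) and above all 6 in 6 of 13 members lower with isobutanol (27.8%). The 3-chloropropanol control was above all 6 in 10 of 21 (13.5%) and below all 6 in 7 of 13 (14.1%). The rule used the means of both alcohol controls and favours such positions. These shares, and the median levels below, therefore describe the members and test nothing. With 3-chloropropanol the control was outside in 17 of 34 members (27.6% of all probes). The 3-chloropropanol-exposed group was outside in 9 of 34 (26.5%), a smaller share than the 39.5% of all probes. For members higher with isobutanol the median level was -1.37 in the isobutanol control and 0.21 in the 3-chloropropanol control, and -0.31 and -0.50 in the exposed groups. Their median in the 6 other controls ran from -0.56 (3,5-dichloroaniline) to 0.03 (aniline), so the alcohol controls were the lowest and the highest of the 8. For members lower with isobutanol the median level was 0.52 in the isobutanol control, -0.74 in the 3-chloropropanol control, and -0.01 and 0.03 in the exposed groups. Their median in the 6 other controls ran from -0.29 (cadmium) to 0.50 (3,5-dichloroaniline), inside the span of the alcohol controls. The gap between the alcohols was smaller in exposed than in control animals in 16 of the 21 members higher and 7 of the 13 lower with isobutanol. Together these were 67.6% of the members, near the 58.9% of all probes and the 70.8% of the 240 probes shifted the same way by both alcohols.

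Each alcohol had 1 control and 2 exposed samples in Cy3, and 2 controls and 1 exposed sample in Cy5, so dye and exposure were not balanced within a chemical. The negative 3-chloropropanol sign of the first set held in Cy3 for 19 of 21 members and in Cy5 for 21 of 21. The exceptions in Cy3 were DM12703P3 (0.05) and DM08424P1 (0.02). The positive sign of the second set held in Cy3 for 7 of 13 members and in Cy5 for 13 of 13. The exceptions in Cy3 were DM06051P3 (-0.17), DM01908P1 (-0.59), DM08372P3 (-0.42), DM02037P2 (-0.34), DM02292P2 (-0.28) and DM02806P1 (-0.30), and DM04864P3 lay at 0.00. Over all probes the sign in Cy3 equalled that over all arrays in 71.5% and the sign in Cy5 in 73.2%. These exceptions were named after their values were seen. The size reached 0.5 in both dyes for 6 of 21 and 1 of 13 members (4.31% of all probes). The median 3-chloropropanol difference was -0.47 in Cy3 and -0.86 in Cy5 in the first set, and 0.00 in Cy3 and 1.18 in Cy5 in the second. With isobutanol the medians were 0.75 in Cy3 and 0.86 in Cy5, and -0.51 in Cy3 and -0.97 in Cy5. With isobutanol the sign held in both dyes for 31 of 34 members (67.9% of all probes), and the size reached 0.5 in both dyes for 15 of 21 and 5 of 13 (8.47%). In the 240 probes shifted the same way by both alcohols these isobutanol shares were 97.5% and 70.8%. The rule used these same arrays, so the shares within each dye describe the members and test nothing.

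The distance between the dyes was wide in the 3-chloropropanol groups. Among the 13 members lower with isobutanol, the 3-chloropropanol control in Cy3 lay a median of 1.39 from the mean of the Cy5 controls, while the 2 Cy5 controls lay a median of 0.10 from each other. Over all probes these distances were 0.305 and 0.0667. In the isobutanol control the corresponding distances for the 13 members were 0.656 and 0.109. The arrays of 3 exposed and 3 control samples did not overlap in 18 of 21 and 10 of 13 members with isobutanol (32.8% of all probes). With 3-chloropropanol they did not overlap in 11 of 21 and 3 of 13 (16.8%). With isobutanol 87.1% of the 240 probes shifted the same way by both alcohols did not overlap. The rule used these arrays, so these counts describe the members and test nothing. With 1 array in 1 dye against 2 in the other, dye and sample cannot be told apart within a 3-chloropropanol group.

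By their labels, the 36 arrays of the 6 other chemicals took no part in choosing the members, and all 34 members were tested there with all 6006 probes (limma, 12 groups plus dye, Benjamini-Hochberg over all probes). Unexposed animals of the 6 experiments differed from each other in 23 of 34 members by limma's F test at an adjusted p under 0.05, 15 of 21 and 8 of 13, beside 24.9% of all probes and 49.2% of the 240 probes that both alcohols shifted the same way. DM12347P3 had the smallest such p among members higher with isobutanol (adjusted p = 0.00027), with control means from -0.92 ± 0.20 in the 4-chloroaniline experiment to 0.51 ± 0.35 in the aniline experiment. In the other set it was DM01145P3 (adjusted p = 0.00089), from -1.37 ± 0.22 in the cadmium experiment to 0.82 ± 0.98 in the 3,5-dichloroaniline experiment. The SD over the 6 control means was a median of 0.451 in members and 0.140 in all probes. In the 240 probes that both alcohols shifted the same way it was 0.383, so a wide spread was not particular to the members. In the same fit 7 of 34 members had a called dye effect (25.8% of all probes), and its median absolute size was 0.145 in members and 0.0953 in all probes.

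In this fit more members passed with cadmium than with any other of the 6 chemicals. By limma 7 of 34 passed an adjusted p of 0.05, against 3.23% of all probes (1.96% that rose and 1.27% that fell) and 24.6% of the 240 probes shifted the same way by both alcohols. DM01619P2 fell by 1.49 ± 0.27 (SE; limma adjusted p = 0.00089), with cadmium controls at -0.51 ± 0.50 and exposed samples at -1.95 ± 0.42. DM02011P1 fell by 1.40 ± 0.29 (limma adjusted p = 0.003) and DM06006P2 by 1.34 ± 0.30 (limma adjusted p = 0.0065). All 3 had a negative 3-chloropropanol difference in both dyes, as had every member higher with isobutanol except DM12703P3 and DM08424P1. DM08424P1, of the same set, rose by 1.67 ± 0.31 (limma adjusted p = 0.0011), from 0.04 ± 0.60 to 1.75 ± 0.16.

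In the set lower with isobutanol, DM01145P3 rose with cadmium by 1.88 ± 0.35 (limma adjusted p = 0.0011), from the lowest of the 6 control means to 0.41 ± 0.27. DM11211P3 rose by 0.71 ± 0.15 (limma adjusted p = 0.0049), from -0.04 ± 0.09 to 0.61 ± 0.12. DM01908P1 fell by 0.82 ± 0.22 (limma adjusted p = 0.031), and this call was lost under 8 of the 14 alternatives, with adjusted p up to 0.67 after quantile normalization. Without cadmium control 3 the call of DM06006P2 was lost (limma adjusted p = 0.066), as it was in a fit of the 6 cadmium arrays alone (0.062). Quantile normalization also ended the cadmium calls of DM01619P2 (adjusted p = 0.20), DM02011P1 (0.29), DM06006P2 (0.081) and DM08424P1 (0.24).

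In this fit fewer members passed with the substituted benzenes, though the difference from cadmium was not tested. With array weights the order of 3,4-dichlorophenol and cadmium was turned in the set higher with isobutanol, as given at the end. With 2,3,4-trichloroaniline 2 of 34 passed, both as rises (3.71% of all probes, 2.31% as rises), and both higher with isobutanol: DM08030P2 rose by 1.14 ± 0.27 (limma adjusted p = 0.017), from -0.09 ± 0.23 to 1.08 ± 0.18, and DM06447P2 rose by 0.69 ± 0.11 (limma adjusted p = 0.00048), from -0.08 ± 0.02 to 0.62 ± 0.12. DM06447P2 was named after its values were seen. The call of DM08030P2 was lost without 2,3,4-trichloroaniline control 2 or exposed sample 1 or 2 (limma adjusted p = 0.054 to 0.16) and after scaling arrays to equal spread (0.092). With 3,4-dichlorophenol 1 of 34 passed (2.91% of all probes, 1.65% as falls): DM06006P2 fell by 1.12 ± 0.30 (limma adjusted p = 0.033), from -0.55 ± 0.29 to -1.71 ± 0.43. The likeness of the 3,4-dichlorophenol arrays to the Cy3 arrays of 3-chloropropanol, given above, touches this result. That call was lost when 3,4-dichlorophenol control 2 or 3 or exposed sample 2 or 3 was left out (limma adjusted p = 0.061 to 0.21), with a replicate block (0.11), in a fit of its own 6 arrays (0.10) and after scaling (0.22) or quantile normalization (0.32). DM12300P1 had -0.83 with 3,4-dichlorophenol and did not pass (limma adjusted p = 0.070). The median 3,4-dichlorophenol effect was -0.30 in members higher with isobutanol, -0.09 in those lower with isobutanol and 0.01 in all probes. In the members higher and lower with isobutanol the median was 0.22 and -0.06 with 2,3,4-trichloroaniline, and -0.10 and -0.36 with cadmium.

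With aniline 0 of 34 members passed by limma (0.0% of all probes), with 4-chloroaniline 0 of 34 (0.05%) and with 3,5-dichloroaniline 0 of 34 (0.0%). An unadjusted p under 0.05 was reached by 5 of 34 members with each of these chemicals, beside 448 of 6006 probes with aniline, 650 with 4-chloroaniline and 308 with 3,5-dichloroaniline. The median effect in members higher with isobutanol was -0.03 with aniline, 0.13 with 4-chloroaniline and 0.41 with 3,5-dichloroaniline, and in the other set it was -0.21, 0.02 and -0.02. With limma's array weights 3 members passed with aniline, and more members also passed with 3,4-dichlorophenol and with cadmium. The share of all probes called with those weights is not given here, so this count is not read as a trait of the members. DM12053P2, the widest member with the alcohols, passed with none of the 6 chemicals. Its largest effect there was 0.90 with 3,5-dichloroaniline (limma adjusted p = 0.88).

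The 6 effects differed among each other in 4 of 34 members by limma's F test (2.85% of all probes): DM01619P2, DM06447P2, DM02011P1 and DM06006P2, all higher with isobutanol. Among the 240 probes shifted the same way by both alcohols, 22.9% passed.

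Several members followed each other over the 36 arrays of the other chemicals. Of 561 pairs of members, 8 had a Pearson r of at least 0.9 (1.43%), as had 0.0144% of all pairs of probes, and the 0.9 was chosen after the values were seen. All probes varied less than members (median SD over the 6 other control means 0.140 against 0.451). Pairs among the 240 probes shifted the same way by both alcohols were not counted. The share is therefore not read as particular to the members. The pairs were DM01619P2 and DM02011P1 (r = 0.99), DM06006P2 with DM12300P1 (0.97) and DM12347P3 (0.91), DM12300P1 and DM12347P3 (0.95), DM07188P1 and DM12538P4 (0.91), DM00720P3 and DM02396P1 (0.93), DM02806P1 with DM02292P2 (0.94) and DM08372P3 (0.97). Every pair lay within a single set, and 12 members took part. The arrays share a reference and their exposures, and the IDs do not tell whether such probes belong to the same gene. Of the 6 probes with opposite differences in both dyes, 5 fall into these pairs, and DM12053P2 into none.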

How the data were processed

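The deposited values are log2 ratios of 2-colour Agilent arrays, 1 per probe and array, as the authors processed them, with array medians from -0.02 to 0.01. That they are log2 and already turned to the same direction was inferred from the values, and neither software nor normalization method is stated in the labels. RNA was labelled with the Low Input Quick Amp kit, per the labels. Spot brightness was not used here, so the number of arrays limits the precision. No filter on low values was applied; 27 control rows were left out. Groups came from the labels. The 36 arrays of the other 6 chemicals were fitted with limma 3.58.1 (R 4.3.3; 12 groups plus dye; 23 residual and 3.46 prior degrees of freedom), with p-values adjusted over 6006 probes; this fit was tested on simulated data. Summaries used Python 3.11.15.

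Named were the 10 members of each set with the largest smaller difference, the called member with the largest effect per chemical and set, those with the smallest F test p, and those at the threshold. Members and lists were chosen with earlier results of these data known. Gene lists could not be applied, since no probe is paired with a gene here. Alternatives covered the threshold, scaling, quantile normalization, dye, array weights, the arrays fitted, a replicate block and leaving out each array.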

Additional observations from a re-analysis of the deposited data

Results flagged for a closer look

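In 4 members the effects of the 6 chemicals other than the alcohols differed from each other by limma's F test over 36 arrays. DM01619P2 (adjusted p = 0.00303) had its largest effect with cadmium, -1.49. DM02011P1 (adjusted p = 0.0102) likewise had -1.40 with cadmium. DM06006P2 (adjusted p = 0.045) had -1.34 with cadmium and -1.12 with 3,4-dichlorophenol. DM06447P2 (adjusted p = 0.00565) had 0.69 with 2,3,4-trichloroaniline.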

How the results depend on the processing

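The number of members depended on how the differences were computed. The set higher with isobutanol (21) and the set lower with isobutanol (13) held 43 and 23 probes at a threshold of 0.4, 14 and 8 at 0.6, and 1 and 1 at 1. Scaling arrays to equal spread gave 10 and 14, and quantile normalization 23 and 4. Taking 3-chloropropanol from Cy3 samples gave 32 and 6, and from Cy5 samples 46 and 27. The median of 3 arrays gave 35 and 25, the similar controls as 1 sample 18 and 8, and the mean of the Cy3 and Cy5 differences, added after seeing the data, 19 and 8. Leaving out each alcohol array gave 18 to 35 and 8 to 26, with 26 without isobutanol control 1, 35 without 3-chloropropanol control 2 and 34 without 3-chloropropanol exposed sample 3. Without each array in turn, the control was farther with isobutanol in 14 to 15 and 6 to 8 members and with 3-chloropropanol in 10 to 14 and 9 to 12. For the other chemicals the calls given next are those of the set higher and then of the set lower with isobutanol. The shares of all probes called under these alternatives are not given, so the counts show only how the calls in members moved. Array weights gave 2 and 1 with aniline, 9 in the first set with 3,4-dichlorophenol, 7 and 6 with cadmium and 1 in the second set with 2,3,4-trichloroaniline. In the first set, 2,3,4-trichloroaniline had 1 call after scaling, and 4 from its own 6 arrays, which gave 1 in the second set. In the first set, 3,4-dichlorophenol had 2 calls in the fit of all 48 arrays, 0 after scaling and 2 among the more variable probes; cadmium had 0 after quantile normalization. The F test among effects called 2 and 1 members after quantile normalization, 13 and 5 with array weights, 2 in the second set after scaling and 1 there among the more variable probes. Leaving out each array gave 0 to 1 in each set with aniline, 1 to 2 with 2,3,4-trichloroaniline and 0 to 1 with 3,4-dichlorophenol in the first set, 3 to 5 and 2 to 3 with cadmium, 3 to 6 and 0 to 2 for the F test among effects and 12 to 15 and 7 to 9 for that among controls. Of 432 counts under alternatives, 377 stayed within 1.5 times, and of 140 repeats of 10 called effects 114 kept the call, 26 lost it and 0 turned. Residuals of same-numbered control and exposed samples, left after group means and dye were taken out, correlated at -0.30 to 0.30 (median 0.03). The correlation was over 0.1 in 7 of 24 pairs. The samples were therefore not treated as paired in the main fit, though a pairing is not excluded. With a replicate block the 3,4-dichlorophenol call became 0, and the other counts that could be fitted stayed within 1.5 times. The causes were not tested, apart from fewer arrays or probes where the alternative itself removes them. Members near the threshold and calls that 1 array decides are limited by 3 arrays a group.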
